A study of Mus musculus with 10 samples.

Results

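The 10 genes described here move glucose into the cell and break it down to lactate. They are the transporter gene Slc2a1, the hexokinases Hk1 and Hk2, the phosphofructokinases Pfkl and Pfkp, the aldolases Aldoa and Aldoc, the phosphoglycerate kinase Pgk1, the pyruvate kinase Pkm and the lactate dehydrogenase Ldha. They were listed by name for their roles, with earlier results of these data known, and make up 10 of the 30183 gene symbols to which a transcript was matched. RNA was sequenced from sorted mouse B lineage cells in 10 libraries, 2 for each of 5 groups, all on the C57BL/6 strain. Control cells were wild type. The NF-kB-activated group carried Rosa-NIKdeltaT3flSTOP with CD19Cre, in which Cre made by B lineage cells frees an allele of the kinase NIK, encoded by Map3k14. The Notch-labelled group carried Rosa-Notch2ICN with CD19Cre, an allele of the intracellular part of Notch2. The doubly activated and the lymphoma group carried both Rosa alleles with CD19Cre. Control, NF-kB-activated and doubly activated cells are labelled as lymph node precursors of marginal zone B cells, Notch-labelled cells are labelled as marginal zone B cells, also of the lymph node, although the names of their files carry the precursor abbreviation, and lymphoma cells came from lymphoma tissue. The sources used here give no age. The labels do not tie libraries to animals, and the p-values below therefore reflect the spread of these libraries alone. The purpose was to learn how joint NF-kB and Notch activation bears on transformation.

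Glucose enters through facilitative transporters, is trapped by hexokinase as glucose 6-phosphate, and is committed to breakdown by phosphofructokinase. Aldolase splits the sugar, phosphoglycerate kinase and pyruvate kinase make ATP, and lactate dehydrogenase turns pyruvate into lactate while restoring the cofactor that the pathway needs. Resting B cells use little glucose, and activated or transformed lymphocytes are known for high expression of these genes, driven among others by the factors Myc and HIF-1.

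2 sets of sequences are shown. The first, shown because the Pkm results are split by them, are the mutually exclusive exons of Pkm, each 167 bases long, which decide between the M1 enzyme and the M2 enzyme of proliferating cells. They lie on chromosome 9 of GRCm38 on the plus strand, at chr9:59675029-59675195 for M1 and chr9:59675568-59675734 for M2. Capitals mark the 64 positions at which the exons differ (61.7% identity). Because they differ so often, reads from this exon tell the transcripts apart.
Pkm M1 exon: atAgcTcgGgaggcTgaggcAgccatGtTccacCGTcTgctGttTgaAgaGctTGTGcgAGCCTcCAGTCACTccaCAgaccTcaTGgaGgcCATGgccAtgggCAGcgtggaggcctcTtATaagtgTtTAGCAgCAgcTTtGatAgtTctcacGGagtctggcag
Pkm M2 exon: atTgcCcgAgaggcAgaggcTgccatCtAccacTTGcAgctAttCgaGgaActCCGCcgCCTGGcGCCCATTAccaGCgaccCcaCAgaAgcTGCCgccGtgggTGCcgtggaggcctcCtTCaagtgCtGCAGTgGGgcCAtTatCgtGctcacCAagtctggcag
The second set are bases upstream of the RefSeq starts of Ldha, Pgk1 and Hk2 (GRCm38.p6), shown as context for 3 members that rose in the Notch-labelled and the lymphoma libraries; no expression value was tested against these letters. They are printed 5′ to 3′ in the direction of the gene, at chr7:46845554-46845803 for Ldha (plus strand), chrX:106186850-106187099 for Pgk1 (plus strand) and chr6:82774455-82774704 for Hk2 (minus strand). Capitals mark ACGTG, read on either strand (CACGT), the core of the sequence bound by HIF-1, and, where matches overlap, CACGTG, the sequence bound by Myc.
Ldha upstream: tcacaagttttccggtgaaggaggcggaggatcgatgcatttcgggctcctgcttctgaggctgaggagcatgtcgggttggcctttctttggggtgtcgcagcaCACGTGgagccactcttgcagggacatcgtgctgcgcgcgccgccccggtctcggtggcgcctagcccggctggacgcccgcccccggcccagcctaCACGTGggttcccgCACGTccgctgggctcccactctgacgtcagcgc
Pgk1 upstream: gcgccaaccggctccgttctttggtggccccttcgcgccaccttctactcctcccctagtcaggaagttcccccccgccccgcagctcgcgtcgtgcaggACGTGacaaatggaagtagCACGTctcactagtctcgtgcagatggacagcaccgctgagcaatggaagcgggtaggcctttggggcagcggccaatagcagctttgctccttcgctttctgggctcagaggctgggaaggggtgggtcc
Hk2 upstream: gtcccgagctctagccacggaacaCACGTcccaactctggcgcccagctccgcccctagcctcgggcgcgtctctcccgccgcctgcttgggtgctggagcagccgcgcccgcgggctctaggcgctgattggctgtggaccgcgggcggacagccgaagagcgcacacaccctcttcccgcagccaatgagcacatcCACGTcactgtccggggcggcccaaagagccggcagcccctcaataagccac
ACGTG stood in 9 of the 16 promoter windows of the 10 genes (300 bases each, 250 upstream of the start and 50 downstream), in at least 1 window of 8 genes, against 19.62% of 32851 windows and 21.8% of genes genome-wide. Pfkl and Pfkp held none in these windows. Of the genes with a match, Hk2, Pgk1, Pkm and Ldha rose and Slc2a1 and Aldoc fell in Notch-labelled cells against control. Hk1 and Aldoa did not pass there. Without a match, Pfkl rose and Pfkp fell. CACGTG, which contains ACGTG, stood only in 1 window of Ldha, with 2 matches that begin at bases -145 and -48 from the start, against 7.15% of all windows. GTGGGAA, searched on both strands as the sequence bound by the Notch partner RBPJ, stood only in 2 windows of Aldoc, against 6.38%. A match is a run of letters and no evidence of binding.

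Depth was 16380889 to 23102081 estimated counts per library, and all 10 genes passed the filter on low counts. Several libraries stood apart from the rest. The Notch-labelled libraries correlated with those of other groups at r = 0.8655 to 0.8925 across genes, which are not independent, against 0.989 to 0.9948 within groups. Lymphoma libraries correlated with control, NF-kB-activated and doubly activated ones at r = 0.9122 to 0.9246. Libraries of control, NF-kB-activated and doubly activated cells correlated across these groups at r = 0.9681 to 0.9834. Map3k14, which the NIK allele encodes, was at 219.8 and 216.9 CPM (counts scaled to 1 common library total) in NF-kB-activated, 244 and 254.5 in doubly activated cells and 152.5 and 153 in lymphoma, above control (102.8 and 129.6). Below control were the Notch-labelled libraries, with Map3k14 at 36.5 and 33.4 CPM. Notch2 was at 284 and 278 CPM in the libraries labelled Notch-activated, 155 and 178 in lymphoma, 702 and 752 in doubly activated cells and 651 and 689 in control. The total Notch2 level thus goes against the label of the Notch-labelled and the lymphoma libraries, and these counts do not separate the allele's transcript from that of the native gene. In the Notch-labelled libraries the Notch-induced gene Heyl was at 50.9 and 44.0 CPM, and in lymphoma at 38.9 and 44.0, against 0.430 and 0.381 in control. Heyl was at 23.3 and 25.6 CPM in doubly activated and at 2.93 and 2.15 in NF-kB-activated libraries. The V segment Ighv1-55 held 92.8% and 93.8% of heavy chain V counts in the Notch-labelled libraries and Ighv1-11 held 92.3% and 92.1% in lymphoma. Elsewhere the leading segment held at most 7.3%. Both libraries of the Notch-labelled and of the lymphoma group thus shared a leading segment. They may stem from 1 clone each, and whether they are independent samples was not tested. The summed level of 8 B cell genes was 3167 and 2952 CPM in Notch-labelled and 5159 and 4932 in lymphoma libraries, against 10100 to 12240 in the others.

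Summed over the 10 genes, expression was 1409 and 1468 CPM in control cells, 1584 and 1454 in NF-kB-activated, 1464 and 1531 in doubly activated, 3249 and 3238 in Notch-labelled, and 2426 and 2170 in lymphoma libraries. In CPM the first 3 groups overlapped, and the Notch-labelled and lymphoma libraries lay above all of them without overlap. In bulk samples, fewer cells of a type and less RNA per cell cannot be told apart. Per transcript length (TPM, the authors' length-corrected unit), Aldoa led in control, at 363 ± 2.74 TPM (SD, n = 2), followed by Pkm at 263 ± 7.89, Ldha at 239.8 ± 11.995 and Pgk1 at 109 ± 4.24. Pfkp, Slc2a1, Pfkl and Hk1 lay between 33.8 and 53.2 TPM, Aldoc was at 10.1 and Hk2 was lowest at 5.14. In Notch-labelled libraries this order changed: Pkm led at 1088 ± 3.47 TPM, then Ldha at 571 ± 5.76, and Aldoa followed at 459 ± 4.19. In lymphoma Aldoa (440 ± 8.91 TPM) and Pkm (431 ± 13.7) led and did not differ beyond their spread, and Ldha (226 ± 7.76) and Pgk1 (221 ± 7.07) did not differ beyond theirs.

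**Figure D1:**
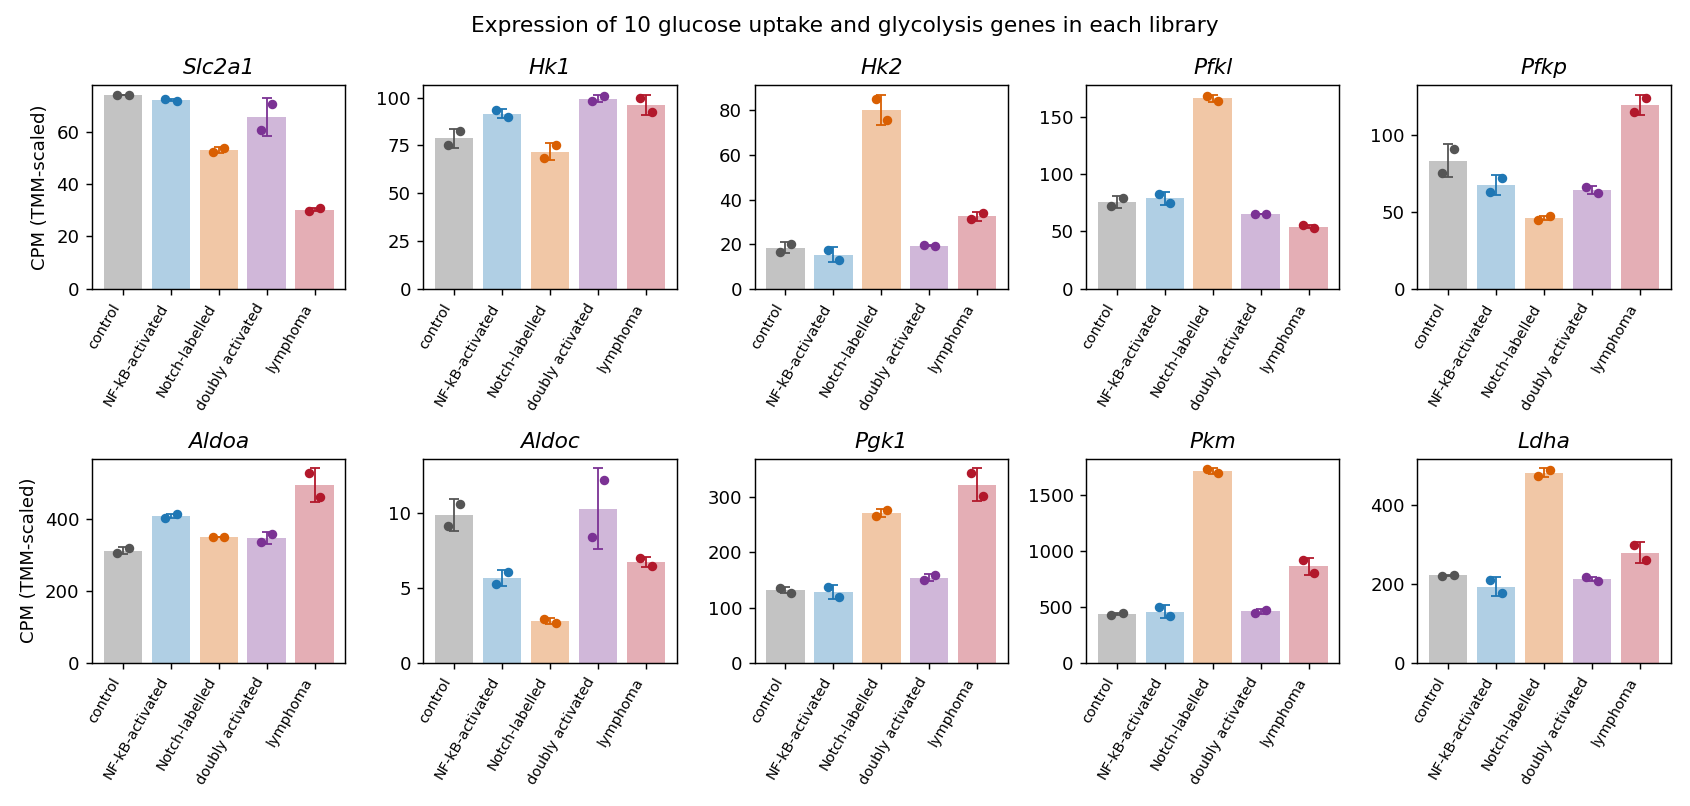
CPM of each of the 10 genes by group; points are libraries, bars the mean and error bars the SD of 2 libraries, with axes from 0. Hk2, Pfkl, Pkm and Ldha were highest in the Notch-labelled libraries, while Pfkp, Aldoa and Pgk1 were highest and Slc2a1 lowest in lymphoma.

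Slc2a1 encodes GLUT1, the main glucose transporter of activated lymphocytes, a protein of the plasma membrane. Its level was 73.9 and 74.2 CPM in control cells, 72.4 and 71.8 in NF-kB-activated, 60.7 and 70.7 in doubly activated, 52.2 and 53.8 in Notch-labelled, and 29.8 and 30.8 in lymphoma libraries. The 5 groups followed this order without overlap between neighbours, and the doubly activated libraries were the furthest apart. Slc2a1 fell in Notch-labelled against control cells (log2 -0.48 ± 0.09 SE, 1.40-fold, adjusted p = 0.000394) and further in lymphoma, 2.44-fold below control (log2 -1.29 ± 0.09, adjusted p = 1.43e-07) and 2.17-fold below doubly activated cells (adjusted p = 6.33e-07). Against control, the NF-kB-activated (log2 -0.04 ± 0.09, adjusted p = 0.846) and doubly activated libraries (log2 -0.17 ± 0.09, adjusted p = 0.197) did not pass the test. Slc2a3, which encodes the neuronal-type transporter GLUT3, had another order: 78.9 and 70.1 CPM in control cells, 117 and 131 in NF-kB-activated, 111 and 114 in doubly activated, 46.5 and 40.7 in Notch-labelled and 83.4 and 81.0 in lymphoma. It rose with NF-kB activation (log2 0.73 ± 0.09, adjusted p = 0.000198) and with both alleles (log2 0.60 ± 0.10, adjusted p = 0.000802), and fell in Notch-labelled cells (log2 -0.77 ± 0.10, adjusted p = 1.9e-05). In TPM, Slc2a1 made up 62.3% and 62.5% of the sum of both genes in control, 58.3% and 67.0% in Notch-labelled cells, a mean of 49.01% in NF-kB-activated, 45.7% and 47.3% in doubly activated libraries and, lowest, 35.1% and 35.8% in lymphoma.

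Hexokinases trap glucose in the cell. Hk1 is the widespread form, and Hk2 is the form induced in growing cells. Hk2 stood at 16.6 and 20.2 CPM in control cells, 17.6 and 12.8 in NF-kB-activated, 19.5 and 19.2 in doubly activated, 85.0 and 75.4 in Notch-labelled and 31.2 and 33.9 in lymphoma libraries. The Notch-labelled and then the lymphoma libraries lay above all others, and control overlapped both the NF-kB-activated and the doubly activated libraries. Hk2 rose 4.36-fold in Notch-labelled cells against control (log2 2.12 ± 0.15, adjusted p = 1.2e-07), the largest rise of the 10 genes in that comparison. It also rose in lymphoma, 1.77-fold against control (log2 0.82 ± 0.15, adjusted p = 0.000496) and 1.68-fold against doubly activated cells (adjusted p = 0.00104). Hk1 spanned the narrowest range, with its highest group mean 1.39 times its lowest: 75.3 and 82.3 CPM in control cells, 93.3 and 90.0 in NF-kB-activated, 98.1 and 100.95 in doubly activated, 68.6 and 75.0 in Notch-labelled, and 99.9 and 92.6 in lymphoma. It rose in doubly activated cells against control (log2 0.34 ± 0.08, adjusted p = 0.0135) and in lymphoma against control (log2 0.29 ± 0.08, adjusted p = 0.011). Both calls for Hk1 were lost without control library 1 (adjusted p = 0.0657 and 0.069), the first also without doubly activated library 2 (0.0878) and the second without lymphoma library 1 (0.0771). They were also lost in a fit of the compared groups alone (0.0564 and 0.0687), and the first with effective transcript length as an offset (0.0711). In TPM, Hk2 made up 12.5% and 11.99% of the hexokinase sum (Hk1, Hk2 and Hk3) in control, 45.7% and 38.9% in Notch-labelled and 13.9% and 16.0% in lymphoma libraries. The transcript Hk2-204 held 15.9% ± 0.835 of Hk2 counts in Notch-labelled libraries and had no estimated count in control and doubly activated libraries.

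**Figure D2:**
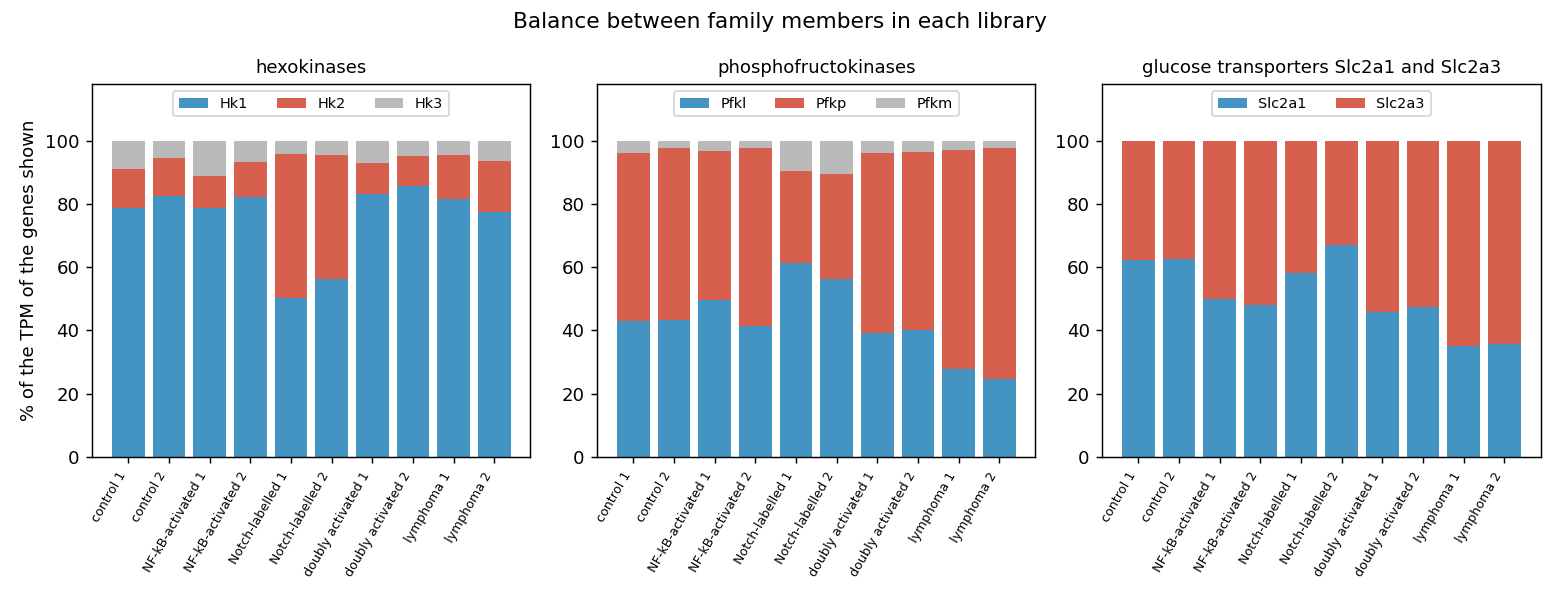
Share of each gene in the summed TPM of its family in each library, for hexokinases, phosphofructokinases and the transporters Slc2a1 and Slc2a3. Hk2 took 45.7% and 38.9% of the hexokinase TPM in Notch-labelled libraries against 12.5% and 11.99% in control, and Pfkp took 69.2% and 72.9% of the phosphofructokinase TPM in lymphoma.

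Phosphofructokinase, the committed step, is built from liver (Pfkl), platelet (Pfkp) and muscle (Pfkm) type subunits, and in the Notch-labelled and the lymphoma comparisons with control the liver and platelet types moved in opposite directions. Pfkl was at 71.7 and 79.0 CPM in control cells, 82.9 and 74.6 in NF-kB-activated, 65.4 and 64.99 in doubly activated, 168 and 163 in Notch-labelled and 55.2 and 53.2 in lymphoma libraries. Pfkp was at 75.6 and 90.7 CPM in control cells, 62.9 and 71.9 in NF-kB-activated, 66.1 and 62.4 in doubly activated, 45.1 and 47.1 in Notch-labelled and 115 and 124 in lymphoma libraries. In CPM, Pfkl was thus highest in the group where Pfkp was lowest, and the reverse held in lymphoma. None of these CPM values overlapped with any other group. Per transcript length, Pfkp in Notch-labelled libraries (36.8 and 43.3 TPM) overlapped with doubly activated ones (37.1 and 41.2), against 48.9 and 57.5 in control. In Notch-labelled cells against control, Pfkl rose 2.20-fold (log2 1.14 ± 0.08, adjusted p = 1.74e-07) and Pfkp fell 1.81-fold (log2 -0.85 ± 0.10, adjusted p = 1.43e-05). In lymphoma against control, Pfkl fell (log2 -0.48 ± 0.08, adjusted p = 0.000424) and Pfkp rose (log2 0.52 ± 0.10, adjusted p = 0.000828). Against doubly activated cells, Pfkp rose 1.86-fold in lymphoma (adjusted p = 1.29e-05), and Pfkl fell (log2 -0.27 ± 0.08, adjusted p = 0.0185). That last fall turned to log2 0.04 when effective transcript length was used as an offset. Without doubly activated library 1 or 2 it did not pass (adjusted p = 0.0725 and 0.0608), nor without lymphoma library 2 (0.086). Pfkp also fell in doubly activated cells against control (log2 -0.37 ± 0.10, adjusted p = 0.0233), a call lost without control library 2 (0.179) or doubly activated library 1 (0.0601) or 2 (0.164), in a fit of the compared groups alone (0.0636) and with the length offset (0.102). In TPM, the share of Pfkp in the 3 subunits was 53.1% and 54.6% in control, 29.3% and 33.2% in Notch-labelled and 69.2% and 72.9% in lymphoma libraries. Transcripts of the neighbour gene Pitrm1 share up to 7.5% of their 31-base words with Pfkp, so some Pfkp counts may be split. Pitrm1 counts were 42.3% to 194% of the Pfkp counts of a library.

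Aldolase cleaves fructose 1,6-bisphosphate. Aldoa is the widespread form, and Aldoc, known from brain, was a minor form here with 54 to 196 counts per library. Aldoa stood at 306 and 320 CPM in control cells, 405 and 414 in NF-kB-activated, 337 and 360 in doubly activated, 352 and 352 in Notch-labelled and 529 and 462 in lymphoma libraries. In CPM, control libraries were lowest and lymphoma libraries highest, with no overlap with other groups. In TPM the highest values were those of NF-kB-activated (481 and 486) and Notch-labelled libraries (462 and 456), above lymphoma (447 and 434). Aldoa rose in NF-kB-activated cells against control (1.31-fold, log2 0.39 ± 0.08, adjusted p = 0.00593) and in lymphoma against control (1.58-fold, log2 0.66 ± 0.08, adjusted p = 2.22e-05) and against doubly activated cells (1.42-fold, adjusted p = 0.000212). The NF-kB call was lost without NF-kB-activated library 2 (adjusted p = 0.0549). Aldoc was at 9.16 and 10.7 CPM in control cells, 5.29 and 6.07 in NF-kB-activated, 8.40 and 12.2 in doubly activated, 2.95 and 2.67 in Notch-labelled and 6.98 and 6.50 in lymphoma libraries. Its lowest values were in Notch-labelled libraries, 3.52-fold below control (log2 -1.82 ± 0.25, adjusted p = 4.32e-05). Its fall with the NIK allele alone (log2 -0.80 ± 0.24, adjusted p = 0.0404) and its rise from there to doubly activated cells (log2 0.86 ± 0.24, adjusted p = 0.0337) were unstable. The fall lost its call without any 1 library outside the doubly activated group (0.0505 to 0.218), and the rise without either NF-kB-activated or Notch-labelled library or doubly activated library 2 (0.0512 to 0.32). Both were lost with the length offset (0.135 and 0.161), and the fall also with the compared groups alone (0.0652) or a replicate block (0.0518). Its fall in lymphoma against doubly activated cells (log2 -0.61 ± 0.24, adjusted p = 0.0471) was lost without doubly activated library 2 (0.386) and without any 1 NF-kB-activated, Notch-labelled or lymphoma library (0.0573 to 0.164), and with no filter, DESeq2, the length offset or a replicate block (0.0597 to 0.112).

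Pgk1, the first ATP-making enzyme of the pathway, lies on the X chromosome. It was at 135 and 127 CPM in control cells, 137 and 119 in NF-kB-activated, 150 and 158 in doubly activated, 266 and 277 in Notch-labelled and 344 and 302 in lymphoma libraries. Lymphoma and Notch-labelled libraries were high and apart from each other and from the rest. Pgk1 rose 2.46-fold in lymphoma against control (log2 1.30 ± 0.09, adjusted p = 1.63e-07), the largest rise of the 10 genes there, 2.10-fold against doubly activated cells (adjusted p = 1.08e-06), and 2.07-fold in Notch-labelled cells against control (log2 1.05 ± 0.09, adjusted p = 8.38e-07). In TPM the order of the top groups was the other way, with 236 ± 8.76 in Notch-labelled and 221 ± 7.07 in lymphoma libraries. Transcripts of the processed pseudogenes Gm5537 and Pgk1-rs7 share up to 100% of 31-base words with Pgk1, so counts may be split among them. Gm5537 held up to 11.4% of the Pgk1 counts of a library. Ddx3y, a gene of the Y chromosome, ranged from 109.5 to 186.5 CPM in NF-kB-activated, doubly activated and lymphoma libraries, but was 59.7 and 0.652 in control and 2.40 and 1.88 in Notch-labelled ones. The sex of the animals was thus not balanced, and its part in the result was not tested.

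Pkm encodes pyruvate kinase, which makes pyruvate and ATP. It was at 426 and 442 CPM in control cells, 497 and 418 in NF-kB-activated, 443 and 475 in doubly activated, 1736 and 1703 in Notch-labelled and 918 and 806 in lymphoma libraries. The NF-kB-activated libraries spanned both control and doubly activated ones, and lymphoma and then Notch-labelled libraries lay above all of these. Pkm rose 3.97-fold in Notch-labelled cells against control (log2 1.99 ± 0.10, adjusted p = 7.79e-09) and 1.99-fold in lymphoma against control (log2 0.99 ± 0.10, adjusted p = 2.97e-06). Against doubly activated cells, lymphoma was 1.88-fold higher (log2 0.91 ± 0.10, adjusted p = 7.16e-06). The transcript with the M2 exon printed above was the main form in each library. It was at 385 ± 9.90 CPM in control cells, 391 ± 60.3 in NF-kB-activated, 404 ± 19.1 in doubly activated, 1636 ± 29.7 in Notch-labelled and 807 ± 79.8 in lymphoma libraries. The M1 exon transcript changed less, at 48.8 ± 1.46 CPM in control cells, 67.0 ± 4.25 in NF-kB-activated, 55.3 ± 3.41 in doubly activated, 83.8 ± 6.84 in Notch-labelled and 55.3 ± 0.474 in lymphoma. Its share of Pkm counts was 11.2% and 11.3% in control cells, 12.9% and 16.8% in NF-kB-activated, 11.9% and 12.2% in doubly activated, 4.55% and 5.20% in Notch-labelled and 5.99% and 6.91% in lymphoma libraries. The share was thus lower in both groups with high Pkm, without overlap with the other groups. These transcript estimates have no test.

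**Figure D3:**
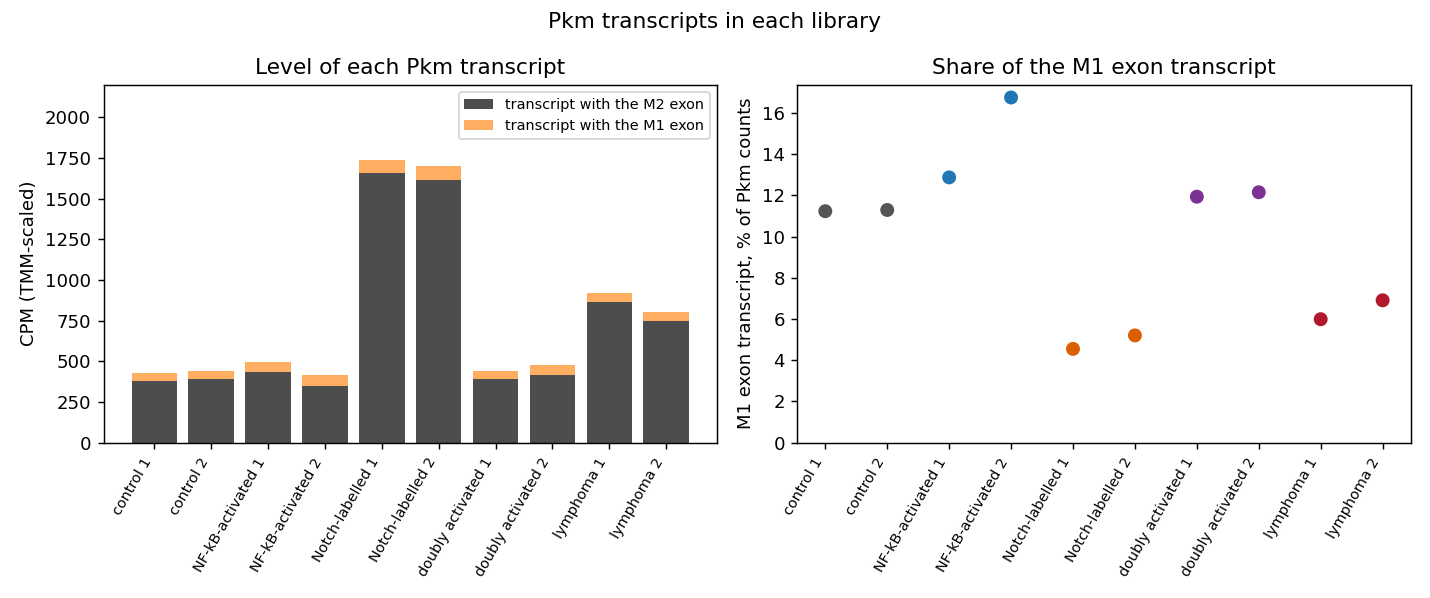
Left, CPM of the Pkm transcripts with the M2 and the M1 exon in each library, stacked from 0; right, the M1 transcript as a percent of Pkm counts. The share was 4.55% to 6.91% in Notch-labelled and lymphoma libraries and 11.2% to 16.8% in the others.

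Ldha encodes the lactate dehydrogenase subunit that favours lactate formation. It was at 220 and 222 CPM in control cells, 209 and 175 in NF-kB-activated, 216 and 208 in doubly activated, 473 and 488 in Notch-labelled and 297 and 259 in lymphoma libraries. Notch-labelled libraries were high, lymphoma libraries intermediate, and the other groups low. Ldha rose 2.17-fold in Notch-labelled cells against control (log2 1.12 ± 0.10, adjusted p = 6.46e-07), 1.26-fold in lymphoma against control (log2 0.33 ± 0.09, adjusted p = 0.0105) and 1.31-fold in lymphoma against doubly activated cells (adjusted p = 0.00402). Per length the lymphoma libraries were not high, at 231 and 220 TPM against 231 and 248 in control, and both lymphoma calls were lost with effective transcript length as an offset (adjusted p = 0.17 and 0.0723). The call against control was also lost without lymphoma library 1 (0.0976). Ldhb, the subunit that favours pyruvate, made up at most 0.35% of the TPM of both genes in control, NF-kB-activated, doubly activated and lymphoma libraries and 2.0% and 2.52% in Notch-labelled libraries. Processed pseudogenes share up to 22.5% of 31-base words with Ldha and held at most 0.269% of its counts.

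The first comparison asked what the NIK allele alone does. Of the 10 genes 1 rose (Aldoa) and 1 fell (Aldoc), where 8.76% of all 15575 genes tested rose and 6.61% fell. The share called was thus close to that of all genes. The median log2 fold change of the 10 genes was -0.03, against 0.00 for all genes. Of 12 other glycolytic enzymes tested, Eno2, a neuronal enolase, rose from 0.259 to 1.10 CPM (adjusted p = 0.00464) and Pgam2, a muscle phosphoglycerate mutase, fell (4.22 to 1.78 CPM, adjusted p = 0.00589). Gapdh (log2 0.20 ± 0.08, adjusted p = 0.147), Eno1, Tpi1, Gpi1 and Pgam1 did not pass. The lactate transporter Slc16a1 fell from 13.97 to 6.26 CPM (adjusted p = 0.000697). Txnip, an inhibitor of glucose uptake that glucose itself induces, fell from 617 to 419 CPM (log2 -0.56 ± 0.10, adjusted p = 0.00253). Of 18 proliferation genes, 0 rose and 14 fell. The summed level of 10 neutrophil genes was 470 and 139 CPM in NF-kB-activated against 1.11 and 22.9 in control libraries, and its part in these results was not tested.

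Both alleles before transformation gave a like count. Against control 1 of the 10 genes rose (Hk1) and 1 fell (Pfkp), against 10.5% and 9.32% of all genes, with a median log2 of 0.06. Against NF-kB-activated cells 1 rose (Aldoc) and 1 fell (Pfkl), against 6.63% and 7.28% of all genes. The fall of Pfkl (log2 -0.27 ± 0.08, adjusted p = 0.0496) lost its call without any single library from the NF-kB-activated, doubly activated, Notch-labelled or lymphoma group (0.0584 to 0.305), and under 7 other settings (0.0512 to 0.0814). Of 12 other glycolytic enzymes, 3 rose against control, among them Gpi1 (499 to 646 CPM, adjusted p = 0.00845) and Gapdh (576 to 732 CPM, adjusted p = 0.0111), and 0 fell. Pfkfb3, which makes the activator of phosphofructokinase, rose from 59.8 to 92.5 CPM (adjusted p = 0.000867), and Txnip fell from 617 to 334 CPM (adjusted p = 6.94e-05). Slc2a1, Hk2, Pfkl, Aldoa, Aldoc, Pgk1, Pkm and Ldha did not pass against control. Myc was higher here than in any other group, at 496 and 747 CPM against 246 and 125 in control (log2 1.75 ± 0.37, adjusted p = 0.0244). Its part in the levels of the 10 genes was not tested. The 11 immediate early genes listed for this report, a list that leaves out Myc, summed to 3360 and 5715 CPM in doubly activated and to 2718 and 1003 in control libraries.

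The next comparison set cells labelled as carrying the Notch2 allele alone against control. Of the 10 genes 5 rose against control (Hk2, Pkm, Pfkl, Ldha and Pgk1) and 3 fell (Aldoc, Pfkp and Slc2a1), where 34.2% of all genes rose and 29.5% fell. Hk1 (log2 -0.13 ± 0.08, adjusted p = 0.177) and Aldoa (log2 0.17 ± 0.08, adjusted p = 0.0862) did not pass. The median log2 fold change was 0.61, against 0.07 for all genes. The enzymes between these steps were higher too, and of 12 tested 9 rose and 1 fell. Gapdh rose 3.38-fold, from 576 to 1946 CPM (log2 1.76 ± 0.09, adjusted p = 6.23e-09), Tpi1, triose phosphate isomerase, from 71.5 to 260 CPM (adjusted p = 1.62e-08), the mutase Pgam1 from 101.3 to 309 CPM (adjusted p = 7.56e-09), the enolase Eno1 from 338 to 731 CPM (adjusted p = 2.73e-07) and the isomerase Gpi1 from 499 to 668 CPM (adjusted p = 0.000876). None of 4 other glucose transporters tested rose and 3 fell, as did the phosphofructokinase regulators Pfkfb2 and Pfkfb4. Of 8 genes of the pentose phosphate pathway, which draws on the same glucose 6-phosphate, 6 rose and 1 fell, led by the transketolase Tkt (213 to 478 CPM, adjusted p = 3.21e-07). Of 4 lactate transport genes 2 rose and 1 fell, and of 10 genes of pyruvate entry into mitochondria 4 rose and 2 fell. Bsg, which carries lactate transporters to the membrane, rose from 92.2 to 186 CPM (adjusted p = 1.02e-06) and Pdha1, of pyruvate dehydrogenase, from 87.4 to 207 CPM (adjusted p = 2.21e-07). Slc16a7, a lactate and pyruvate transporter, fell from 7.18 to 0.373 CPM (adjusted p = 5.59e-06) and Mpc1, of the mitochondrial pyruvate carrier, from 37.4 to 16.9 CPM (adjusted p = 7.6e-06). Txnip fell from 617 to 197 CPM (adjusted p = 5.48e-08) and Hif1a from 114 to 88.9 CPM (adjusted p = 0.00254), and Myc did not pass (log2 0.62 ± 0.36, adjusted p = 0.187). Of 13 other hypoxia-induced genes, 3 rose and 4 fell.

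Other cell features moved with these results in the Notch-labelled libraries. All 18 proliferation genes rose, and their summed level was 4664 and 4541 CPM against 1120 and 865 in control. Of 8 stromal and endothelial genes 6 rose and 1 fell, with sums of 805 and 1022 CPM against 307 and 314. The collagen gene Col1a2 was at 391 and 534 CPM against 0.615 and 0.870, and Dcn, Pdgfrb and Lum, at 0 in control, were at 5.69 and 8.35, 13.8 and 17.4, and 0.849 and 1.63 CPM. These genes, all higher than in control, were named after their values were seen. Over the 8 genes log2 fold changes ran from -0.88 to 11.2. The control sum lay almost wholly in genes of the list not named here. Of 10 T cell genes 5 rose and 1 fell (sums of 154 and 166 CPM against 82.1 and 92.6), of 10 neutrophil genes 4 rose (78.9 and 77.95 against 1.11 and 22.9), of 7 plasma cell genes 5 rose and 1 fell (1041 and 980 against 527 and 524), of 5 erythroid genes 3 rose (49.7 and 45.5 against 4.86 and 15.01), and of 9 macrophage genes 4 fell. Of 8 B cell genes 7 fell, and Pax5 rose (251 and 256 CPM in control cells, 410 and 378 in Notch-labelled libraries). The part of proliferation and of these other cell markers in the glycolytic differences was not tested, and the allele, the labelled cell type and the dominance of 1 V segment cannot be told apart in this design.

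**Figure D4:**
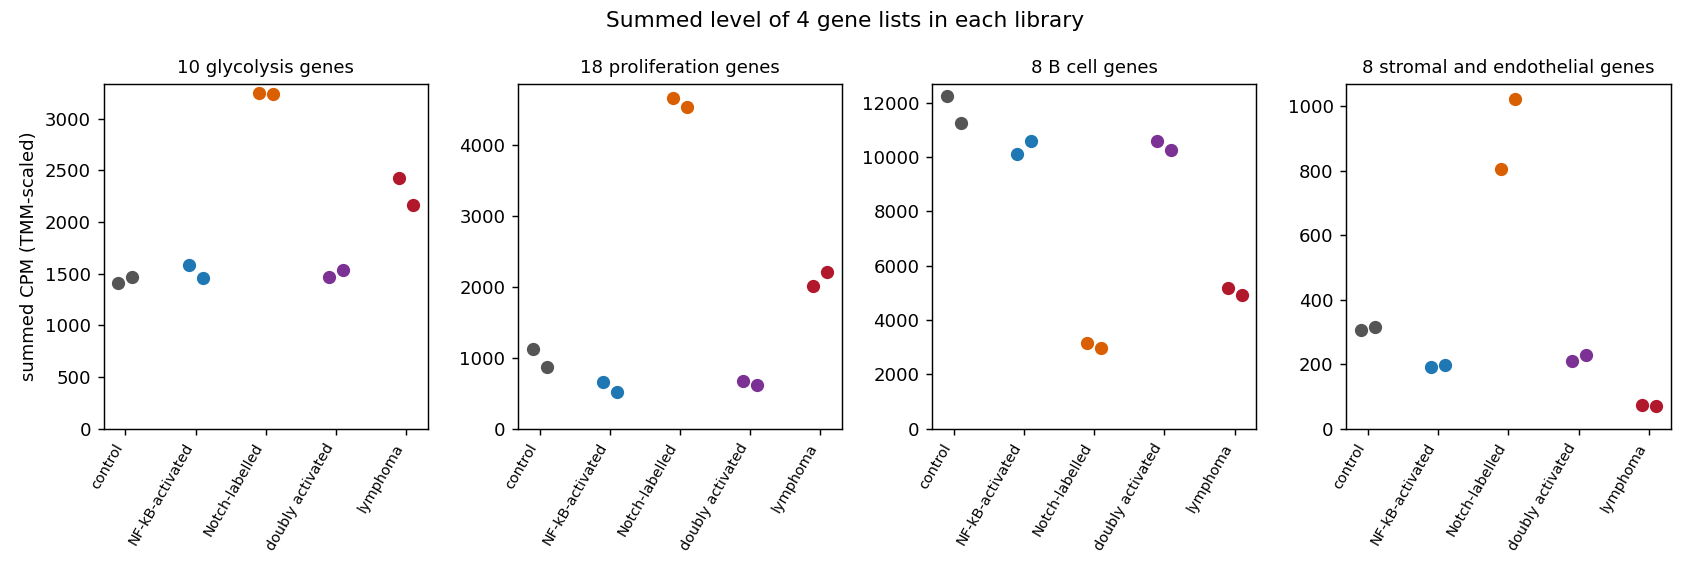
Summed CPM of the 10 genes, 18 proliferation genes, 8 B cell genes and 8 stromal and endothelial genes; points are libraries, with axes from 0. Notch-labelled libraries were highest for the 10 genes (3249 and 3238) and for proliferation (4664 and 4541), with lymphoma second in both.

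The effect of the NIK allele beside the Notch2 allele was then set against its effect alone, which is the same contrast as the effect of the Notch2 allele with and without the NIK allele. Between doubly activated and Notch-labelled cells, 4 of the 10 genes rose (Slc2a1, Hk1, Pfkp and Aldoc) and 5 fell (Hk2, Pfkl, Pgk1, Pkm and Ldha), against 30.9% and 33.2% of all genes. Pkm was 3.75-fold and Hk2 4.14-fold lower in doubly activated cells (adjusted p = 1.05e-08 and 1.54e-07). The rise of Slc2a1 (log2 0.31 ± 0.09, adjusted p = 0.00827) was lost without doubly activated library 2 (0.0983) and with library size scaling (0.195), and that of Pfkp with the length offset (0.258). The difference of the effects passed the test for 9 of the 10 genes, 3 upward and 6 downward, against 23.9% and 25.6% of all genes. It was log2 -1.98 ± 0.14 for Pkm (adjusted p = 3.59e-07), -1.77 ± 0.21 for Hk2 (adjusted p = 2.64e-05) and 2.67 ± 0.35 for Aldoc (adjusted p = 5.01e-05). For Hk1 it did not pass (log2 0.25 ± 0.12, adjusted p = 0.0934). All these values rest on the Notch-labelled libraries, which differ from the others in labelled cell type and V segment use as well, and comparisons with them share the same 2 libraries.

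Lymphoma cells were compared with doubly activated precursors of the same genotype. Of the 10 genes 6 rose (Hk2, Pfkp, Aldoa, Pgk1, Pkm and Ldha) and 3 fell (Slc2a1, Pfkl and Aldoc), against 26.1% and 25.2% of all genes, with a median log2 fold change of 0.45 against 0.01. Against control 7 rose, Hk1 with those 6, and 2 fell (Slc2a1 and Pfkl), against 27.8% and 25.6% of all genes, with a median of 0.43 against 0.02. Both comparisons share the lymphoma libraries. With the effective length offset, Ldha lost its call in both comparisons and Aldoc lost its call against doubly activated cells. Pfkl changed sign against doubly activated cells with that offset. Of 12 other glycolytic enzymes, 6 rose and 0 fell against doubly activated cells. Gapdh rose from 732 to 1513 CPM (log2 1.05 ± 0.08, adjusted p = 5.71e-07), Tpi1 from 82.9 to 142 CPM (adjusted p = 4.13e-05), Eno1 from 296 to 419 CPM (adjusted p = 0.00034) and Pgam1 from 117 to 160 CPM (adjusted p = 0.000412). Gpi1 did not pass (log2 -0.18 ± 0.08, adjusted p = 0.0897). Slc2a3 fell with Slc2a1 (113 to 82.2 CPM, adjusted p = 0.00149), as did Pfkfb3 (92.5 to 53.4 CPM, adjusted p = 3.47e-05). Slc16a7, a lactate and pyruvate transporter at 3.41 CPM in doubly activated cells, had no count in lymphoma, and Bsg rose from 78.4 to 133 CPM (adjusted p = 1.81e-05). Mpc2, a subunit of the mitochondrial pyruvate carrier, rose from 18.2 to 50.3 CPM (adjusted p = 3.24e-06). Hif1a, Myc and Txnip fell, Myc from 621 to 218 CPM (adjusted p = 0.0161). Of 13 other hypoxia-induced genes 3 rose and 3 fell, with Ero1l, an oxidase of the endoplasmic reticulum, going from 40.6 to 123 CPM (adjusted p = 1.73e-07). Of 18 proliferation genes 17 rose (sums of 2009 and 2206 CPM against 669 and 616), of 7 plasma cell genes tested 6 rose, and 8 of 8 B cell genes fell. Of 8 stromal and endothelial genes 2 rose and 2 fell, with log2 fold changes from -2.05 to 8.32. Their sum, 73.1 and 69.0 CPM, was below all other groups. This sum does not stand for each gene of the list. T cell genes summed to at least 186 CPM in the lymphoma libraries against 58.8 and 40.7 in doubly activated cells (1 rose and 3 fell of 10), and erythroid genes to 74.6 and 60.6 against 16.3 and 2.29 (1 rose of 5). The part of these lists in the glycolytic differences was not tested, and tissue, V segment dominance and transformation cannot be told apart.

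**Figure D5:**
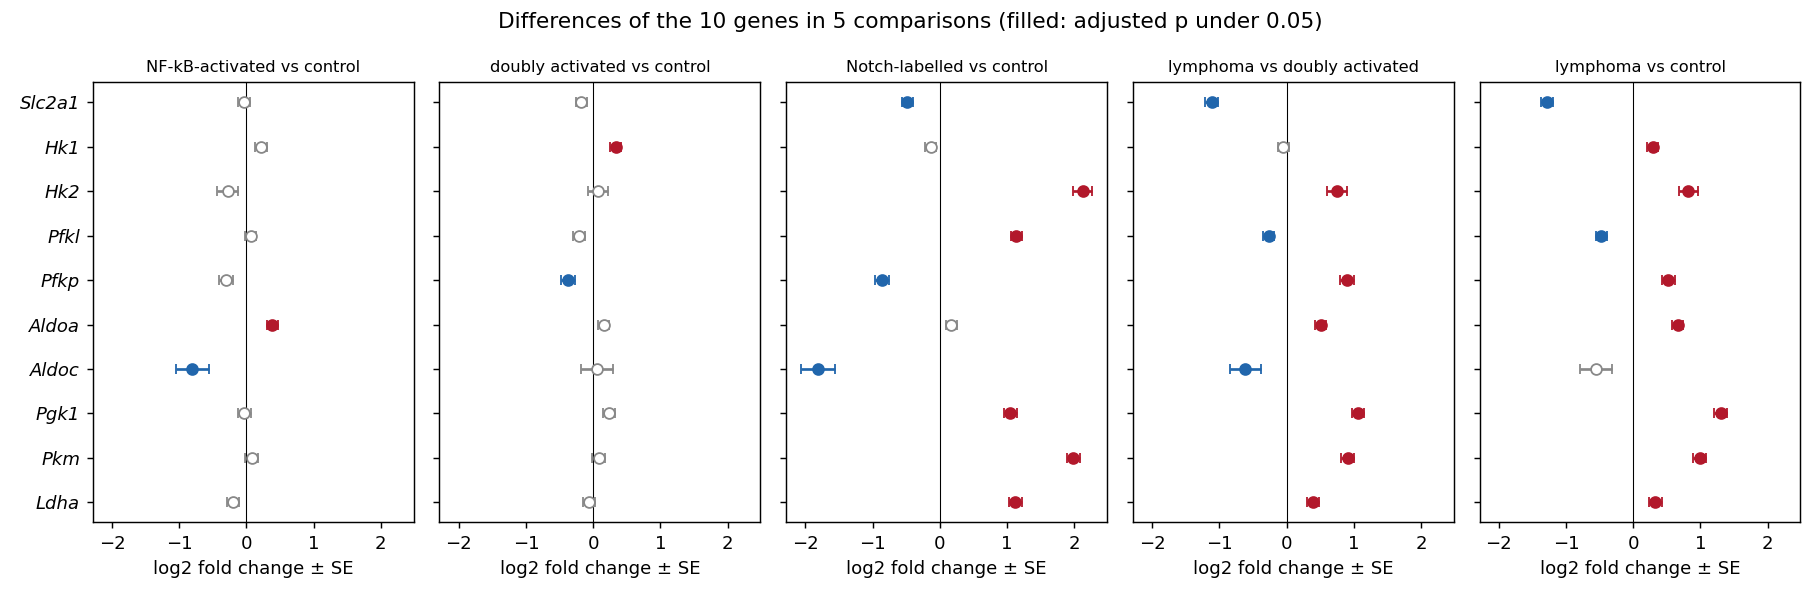
Log2 fold change ± SE of the 10 genes in 5 comparisons from the edgeR fit; filled red points rose, filled blue points fell and open points did not pass. With NF-kB activation 2 of 10 pass, where 8.76% of all genes rose and 6.61% fell. With both alleles before transformation 2 pass, where 10.5% of all genes rose and 9.32% fell. In Notch-labelled cells 8 pass, where 34.2% of all genes rose and 29.5% fell. In lymphoma 9 pass against doubly activated cells, where 26.1% of all genes rose and 25.2% fell. Against control 9 pass too, where 27.8% rose and 25.6% fell.

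The genes whose 5 group means followed each profile most closely were picked from 9721 genes outside the lists, by root mean square distance of centred log2 values. For Pkm these were Bend3 (distance 0.02) and the peroxiredoxin Prdx2 (0.07), for Hk2 Ece1 (0.08) and Thop1 (0.08), for Ldha Usp49 (0.04) and Sae1 (0.05), and for Slc2a1 Amer1 (0.07) and the integrin Itgav (0.07). Itgav, like Slc2a1, was highest in control (58.0 CPM) and lowest in lymphoma (24.8 CPM). Prdx2 was at 59.3 CPM in control cells, 264 in Notch-labelled and 116 in lymphoma libraries. With 5 groups, close profiles occur among many genes, and these are given as descriptions with no test.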

How the data were processed

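RNA of FACS-sorted B lineage cells was sequenced in 10 libraries, 5 groups of 2. The authors deposited 1 table per library with estimated counts per transcript, not normalized, and length-corrected TPM values, per the file headers. Per the submitters' processing notes, kallisto 0.44.0 and mm10 were used, with no transcript release named. Of 88198 transcripts, 86031 had an identifier found in GENCODE M21 (GRCm38); the other 2167 held 1.09% to 1.38% of the counts and were left out. Estimated counts were summed per symbol (30183 symbols, 22 of them shared by more than 1 gene identifier) and rounded. Splitting of reads among near-identical copies is the estimate of that software, so it can shift single genes.

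Genes were tested in edgeR 4.0.16 (R 4.3.3): filterByExpr (minimum count 10, minimum total 15; 15575 genes), TMM scaling, then quasi-likelihood fitting with robust estimation, 1 model for the 10 libraries, with 5 residual degrees of freedom (biological coefficient of variation 0.1202). There were 8 comparisons. Tests were two-sided, with Benjamini-Hochberg adjustment over all genes of a comparison, called at 0.05. CPM are TMM-scaled, and means carry the SD of 2 libraries. Paired libraries of 1 group differed by more than counting error (chi-square 4.48 to 22.1 times its degrees of freedom), so none was a repeat deposit. The test script was run on simulated data first.

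The members and lists were chosen with earlier results of these data known. Named are all 10 members, in each other list the 2 called genes of smallest p per comparison (not all are printed), and Gapdh, Eno1, Tpi1, Gpi1, Pgam1, Hif1a, Myc and Txnip. Col1a2, Dcn, Pdgfrb, Lum, Pax5, Ddx3y, Heyl, Hk2-204 and Slc2a3 in all groups were named after their values were seen. T cell, macrophage and erythroid lists were also measured (sums of 40.7 to 205, 24.1 to 209 and 2.29 to 75.3 CPM per library).

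Promoter windows are RefSeq's (GRCm38.p6), with bases that overlap an exon left out of what is printed; all 10 members matched. Alternatives were relative log expression scaling, library size alone, other filters, DESeq2 1.42.0, the compared groups alone, Notch-labelled libraries left out, receptor segments left out, an effective length offset, a replicate block, each library left out, and, chosen after seeing the data, Pgk1 summed with its copies.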

Additional observations from a re-analysis of the deposited data

Results flagged for a closer look

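The effect of the NIK allele beside the Notch2 allele differed from its effect alone for 9 of the 10 genes (edgeR quasi-likelihood test of the difference, Benjamini-Hochberg over all genes), where 23.9% of all genes passed upward and 25.6% downward. The allele cannot be told apart from the labelled cell type and the V segment use in which the Notch-labelled libraries also differ. The differences were log2 -1.98 for Pkm, -1.77 for Hk2, -1.41 for Pfkl, -0.98 for Ldha, -0.79 for Pgk1 and -0.40 for Aldoa (adjusted p = 0.0111), and 2.67 for Aldoc, 0.79 for Pfkp and 0.35 for Slc2a1 (adjusted p = 0.034). For Pkm, Hk2, Pfkl, Ldha and Pgk1 the Notch-labelled libraries were the highest of the 4 groups compared. The value for Slc2a1 did not pass in 10 alternatives (adjusted p = 0.0511 to 0.266), that for Aldoa without NF-kB-activated library 2, Notch-labelled library 1 or doubly activated library 1 (0.0534 to 0.0599), and that for Pfkp with the effective length offset (0.121).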

How the results depend on the processing

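Of 80 results (10 genes in 8 comparisons) 50 were called. Their 1024 alternative values kept direction and call in 944 cases, lost the call in 79 and turned direction in 1, Pfkl in lymphoma against doubly activated cells with the effective length offset (log2 0.0424). Of 626 alternative values of results not called, 580 stayed so in the same direction, 18 passed and 28 changed sign.

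The members called in NF-kB-activated against control cells numbered 2, and 1 with the compared groups alone, the length offset or the replicate block, and 0 to 2 without single libraries. In doubly activated against control cells they were 2, and 0 with the compared groups alone, 1 with the length offset and 0 to 2 without single libraries. In doubly activated against NF-kB-activated cells they were 2, and 1 with relative log expression scaling, no filter, Notch-labelled or receptor segments left out, the length offset or the replicate block, and 0 to 2 without single libraries. Without single libraries the counts of all genes called in these comparisons ranged from 1433 to 2292, from 1637 to 3087 and from 726 to 2803, lowest without NF-kB-activated library 2, doubly activated library 2 and doubly activated library 2. With the compared groups alone doubly activated against control gave 1992, and with the length offset doubly activated against NF-kB-activated gave 1393. With library size scaling, rises made up 41.7% of calls in doubly activated against control (53.1% with TMM), 34% against NF-kB-activated (47.6%) and 38.1% for the difference of effects (48.3%). The median gene moved by 0.105 for Notch-labelled against control and by -0.174 for doubly activated against Notch-labelled cells.

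Changes of sign (log2), the cause of which was not tested, were as follows. For NF-kB-activated against control, Pfkl was -0.0548 with the length offset, -0.0141 to 0.138 without single libraries. Pgk1 was -0.133 to 0.0682 without single libraries. Pkm was -0.0511 to 0.199 without single libraries. For doubly activated against control, Hk2 was -0.0678 with the length offset, -0.0604 to 0.225 without single libraries. Aldoc was -0.017 with library size scaling alone, -0.0477 with the length offset, -0.235 to 0.303 without single libraries. For doubly activated against NF-kB-activated, Hk2 was -0.0626 with the length offset. Pfkp was -0.162 to 0.0239 without single libraries. Pkm was -0.0663 with library size scaling alone, -0.0008 with no filter on low counts, -0.0003 with a filter at 1 CPM, -0.0075 with the length offset, -0.123 to 0.135 without single libraries. For doubly activated against Notch-labelled, Aldoa was 0.0111 with a filter at 1 CPM, 0.0015 with receptor segments left out, -0.0533 to 0.0385 without single libraries. For lymphoma against doubly activated, Hk1 was 0.0773 with the length offset, -0.105 to 0.0069 without single libraries. Pfkl was 0.0424 with the length offset.

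Same-numbered libraries of different groups did not deviate together (r = -0.11 to 0.084 in 10 pairs of groups). The numbers thus gave no sign of a pairing, but such values cannot tell whether same-numbered libraries were handled together. With this replicate block 2098, 2798 and 1775 genes were called in the first 3 comparisons above. Aldoc had 54 to 196 counts per library, and its SE was the largest of the 10 genes in each comparison. Leaving out both Notch-labelled libraries gives no value for the comparisons that use them.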
